A study of Brassica napus with 16 samples.

Results

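Of the 101040 gene identifiers measured by RNA-seq in Brassica napus (oilseed rape), 218 had an FPKM of 1 or more in all 8 young leaf and root libraries and below 1 in all 8 flower bud and silique libraries. FPKM counts sequenced fragments, scaled for transcript length and for the size of the library. The 150 of these genes with the highest mean FPKM over the 8 young leaf and root libraries are described here. The members were chosen by these FPKM values, so their presence in young leaf and root and their low level in flower bud and silique are a description of the rule and carry no test.

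The libraries come from the cultivars 2063A and B409, with 2 replicates for each cultivar in each of 4 tissues. No transgene or treatment is named for any group. Roots were 1 week old and came from moist paper, young leaves were from 2-week-old seedlings in hydroponics, and both were grown in a phytotron at 22 °C by day and 18 °C by night, with 16 h of light. Flower buds, of at most 2 mm, and siliques, 3 to 5 cm long, came from plants in the field. The labels do not say that replicates were separate plants, so every p-value reflects variation between the sampled libraries only, and that variation may be technical. Organ, plant age and growing place change together between the seedling pair and the field pair and cannot be told apart. The same holds between young leaf and root, which also differ in age and in growth medium, so a difference between them is one between these samples and not of the organ alone.

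Brassica napus is an allotetraploid: its A subgenome descends from a relative of Brassica rapa and its C subgenome from a relative of Brassica oleracea, so that many genes are present as an A copy and a C copy, called homeologs. Young leaf and root are vegetative organs with very different work, photosynthesis in one and uptake of water and minerals in the other. Flower buds and siliques are reproductive organs that nevertheless contain green tissue, and siliques also carry the seeds. In whole organs, fewer cells of a type and less RNA per cell cannot be told apart. The identifiers carry a subgenome, a chromosome and an order number but no gene name. Only 6 of the 150 (and 3347 of all identifiers) are listed as symbols in the RefSeq gene table of the assembly Da-Ae, without a product, so no function is given for any member. None of the 18 marker symbols chosen to check the tissue labels could be paired with an identifier, and that check was not made.

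Relative sequencing depth was estimated from the ratios of low FPKM values between libraries. It ranged from 0.674 to 1.88 times that of replicate 1 of 2063A root. In young leaf, replicate 2 was deeper than replicate 1 in both cultivars (1.83 against 0.865 in 2063A and 1.73 against 1.04 in B409), whereas the 4 root libraries lay between 0.901 and 1. For the 142 members with a non-zero value in flower bud or silique, the smallest such value, set to the depth of that root library, had a median of 0.133 FPKM. An FPKM of 1 therefore stood for a median of 7.51 such steps, and values near the threshold rest on few fragments.

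The members were mostly genes of modest level. Their mean FPKM over the 8 libraries ran from 3.74 to 259 with a median of 7.37. It was 100 or more in 3 members, 20 to below 100 in 13, 10 to below 20 in 32, 5 to below 10 in 64 and lower in 38. At the border of the list, BnaA01g14640D and BnaA05g04830D were the last members, with means of 3.77 and 3.74, and BnaA09g28200D and BnaAnng11780D fell just outside with 3.72 and 3.71.

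The threshold itself also passed through close values. BnaA09g30590D reached 0.994 in replicate 2 of 2063A flower bud and is a member, while BnaA03g44600D reached 1.02 in replicate 2 of B409 silique and is not. BnaAnng22510D was at 1.02 in replicate 1 of B409 young leaf and is a member, while BnaC08g02620D was at 0.9999 in replicate 2 of B409 young leaf and is not. Of the 150 members, 84 reached 0.5 or more in some flower bud or silique library and 18 reached 0.9, whereas 14 stayed below 0.1. In the 8 flower bud and silique libraries, 8 members were listed at 0 throughout and 29 had a value above 0 in each. The number of members listed at 0 ranged from 33 in replicate 2 of B409 silique (relative depth 1.61) to 93 in replicate 2 of B409 flower bud (0.674).

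**Figure D1:**
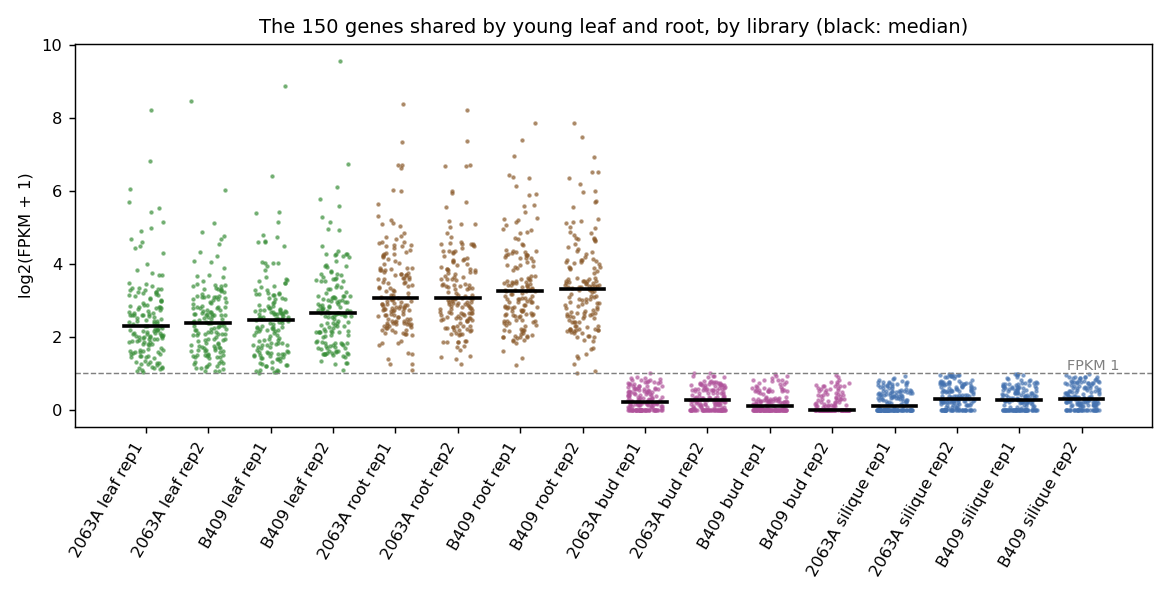
FPKM of the 150 members in each of the 16 libraries, on the log2(FPKM + 1) scale; each point is a gene, black bars are medians and the dashed line is an FPKM of 1. By the rule every point lies at or above the line in the 8 young leaf and root libraries and below it in the others; the medians of the 4 root libraries (7.30 to 8.89 FPKM) are above those of the 4 young leaf libraries (3.93 to 5.30 FPKM).

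The members together made up a larger share of the root transcriptome than of the young leaf transcriptome. Their summed FPKM was 1421 and 1258 in the young leaf libraries of 2063A, 1469 and 2060 in those of B409, 2397 and 2351 in root of 2063A, and 2518 and 2567 in root of B409. Every root library lay above every young leaf library. As a share of all FPKM this was 0.256% ± 0.0578 in young leaf and 0.471% ± 0.0206 in root (SD, n = 4 each). In flower bud and silique the sums were 19.1 to 46.4.

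Young leaf and root were compared gene by gene with limma on log2(FPKM + 1), over the 54206 genes that reached 1 FPKM in 2 or more libraries. Calls required an adjusted p (Benjamini-Hochberg) below 0.05 together with a 2-fold or larger difference on the log2(FPKM + 1) scale. All 150 members entered this test, since the rule puts them past its filter. Among them 70 were higher in root (46.7%, against 27.2% of all tested genes) and 15 were higher in young leaf (10%, against 13.5%), while 65 were not called. The median difference, young leaf minus root, was -0.89 on the log2 scale for the members and -0.41 for all tested genes. Among the 23080 genes that reached 1 FPKM in each of the 8 young leaf and root libraries, the same rule called 27.3% higher in root and 9.52% higher in young leaf. The median level of the root-higher members was 14.7 FPKM in root and 3.28 in young leaf, and that of the leaf-higher members was 27.1 in young leaf and 3.30 in root. The 4 root libraries lay above the 4 young leaf libraries without overlap for 76 of the 150 members, and the reverse held for 20. Among tested genes 39.4% and 16.1% were separated in this way, a smaller share for root and a larger one for young leaf.

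The balance depended on scaling. Of the called members, 17.6% were higher in young leaf on the deposited scale. Quantile normalization raised this to 30.9%, with 25 members higher in young leaf and 56 in root. It moved the median difference of all genes from -0.41 to -0.08 and that of the members from -0.89 to -0.47. The shares of all tested genes called under that scaling are not given here. The fit shares 1 estimate of spread over all tissues, which include flower bud and silique, where the members are near 0. The median replicate SD of the members was 0.372 in young leaf, 0.117 in root, 0.112 in silique and 0.0874 in flower bud on the log2 scale. For all tested genes it was 0.244, 0.114, 0.133 and 0.131 in the same order. Fitted to the 8 young leaf and root libraries alone, the same 70 and 15 members were called.

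**Figure D2:**
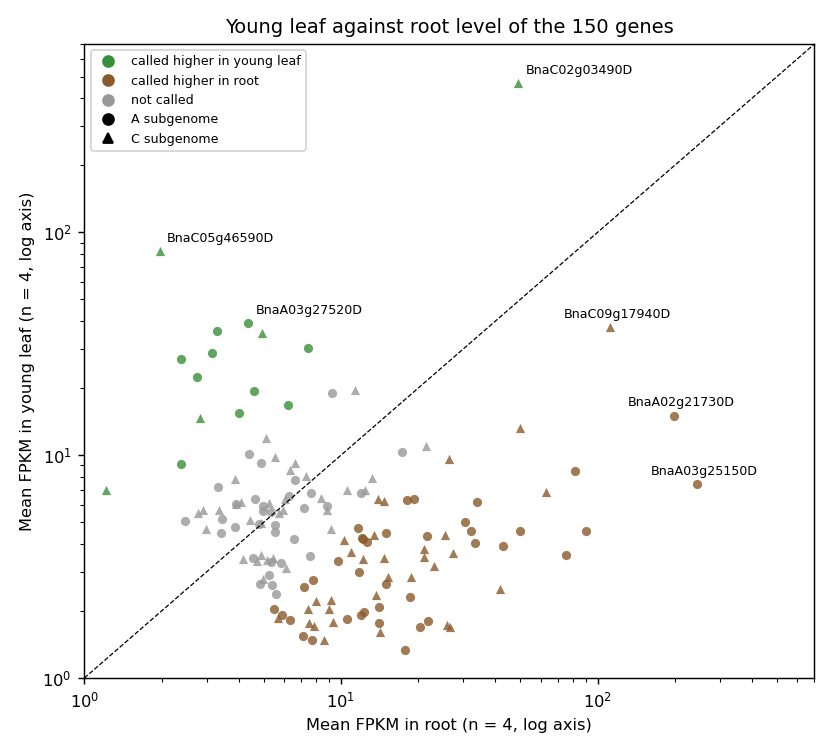
Mean FPKM of each member in young leaf (vertical, log axis) against root (horizontal, log axis), n = 4 libraries each; colour shows the limma call, circles A and triangles C subgenome genes, and the dashed line equal levels. The 70 members called higher in root lie below the line and the 15 called higher in young leaf above it, with BnaC02g03490D apart from all others.

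Among the 10 members with the highest mean, 8 were higher in root and 2 in young leaf. BnaC02g03490D, on chromosome C02, was first. It had an FPKM of 298 and 357 in young leaf of 2063A, 469 and 755 in young leaf of B409, 38.6 and 35.1 in root of 2063A, and 60.1 and 62.3 in root of B409. All young leaf values exceeded all root values, and B409 lay above 2063A in both organs. The log2 difference was 3.19 (SE 0.19, adjusted p = 1.9e-08). In the young leaf libraries this gene alone held 21.0% to 36.7% of the summed FPKM of the 150 members, and in flower bud and silique it did not exceed 0.841.

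BnaC05g46590D, on C05, had the widest leaf excess of the called members without overlap. It was at 112 and 26.1 in young leaf of 2063A, at 83.6 and 107 in that of B409, at 2.53 and 2.26 in root of 2063A, and at 1.68 and 1.39 in root of B409. Replicate 2 of 2063A young leaf was the low one of the 4, yet still far above root (log2 difference 4.63, SE 0.32, adjusted p = 7.0e-08). BnaC02g03490D had the second largest leaf excess, and the next by size were BnaA05g31210D, at 36.0 ± 11.6 in young leaf and 3.30 ± 1.0 in root, and BnaA04g06570D, at 27.1 ± 9.74 and 2.39 ± 0.957 (SD, n = 4 each). BnaA09g28290D, one of the 6 members in the RefSeq table, was at 28.7 ± 15.8 in young leaf and 3.14 ± 0.517 in root (SD, n = 4 each). The young leaf values of these 3 genes were lowest in replicate 2 of 2063A. BnaA03g27520D, BnaA10g08410D and BnaC03g61740D completed the 8 with the largest leaf excess, with log2 differences of 2.58, 2.46 and 2.45. BnaA03g27520D and BnaA10g08410D also differed between the cultivars.

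On the root side, BnaA03g25150D had the largest difference. It was at 334 and 297 in root of 2063A, 168 and 179 in root of B409, 5.82 and 7.48 in young leaf of 2063A, and 9.51 and 6.80 in that of B409. The root values of 2063A and B409 did not overlap, and the young leaf values did (log2 difference -4.82, SE 0.11, adjusted p = 3.2e-12). In 7 of the 8 flower bud and silique libraries it was listed at 0.

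BnaA02g15620D, also on the A subgenome, was at 62.8 and 60.9 in root of 2063A, at 86.6 and 91.1 in root of B409, and between 2.57 and 4.35 in young leaf (log2 difference -4.05, SE 0.11, adjusted p = 1.0e-11). BnaA01g06730D was at 104 and 103 in root of 2063A, at 80.7 and 72.0 in root of B409, and between 3.54 and 5.97 in young leaf (log2 difference -4.03, SE 0.14, adjusted p = 9.7e-11). So the cultivar with the higher root value was B409 for the first and 2063A for the second. BnaA02g21730D was at 162 and 165 in root of 2063A and at 233 and 232 in root of B409. Its young leaf values were 6.13 and 15.8 in 2063A and 8.74 and 29.6 in B409, with replicate 2 the higher in both cultivars (log2 difference -3.83, SE 0.32, adjusted p = 4.0e-07). BnaC06g22310D, BnaC01g03450D, BnaCnng67530D and BnaA08g22580D followed, with log2 differences from -3.61 to -3.18 and no overlap between the organs.

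Not every abundant member was steep. BnaC09g17940D, at rank 4 by mean, was at 51.0 and 34.0 in young leaf of 2063A and at 34.8 and 30.3 in that of B409. In root it was at 99.0 and 104 in 2063A and at 123 and 122 in B409, so the organs were separate by a narrower margin (log2 difference -1.58, SE 0.11, adjusted p = 1.1e-07). BnaA05g07550D, at 8.54 ± 2.26 in young leaf and 82.0 ± 24.7 in root (SD, n = 4 each), reached 0.991 in replicate 2 of 2063A flower bud, close to the limit of the rule. BnaC01g08110D was at 6.84 ± 3.33 in young leaf and 62.8 ± 15.4 in root (SD, n = 4 each). At the other end, 34 of the 70 root-higher members and 8 of the 15 leaf-higher members differed by 4-fold or more on the log2(FPKM + 1) scale. That scale gives smaller folds than FPKM itself. The matching share of all tested genes was not computed.

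**Figure D3:**
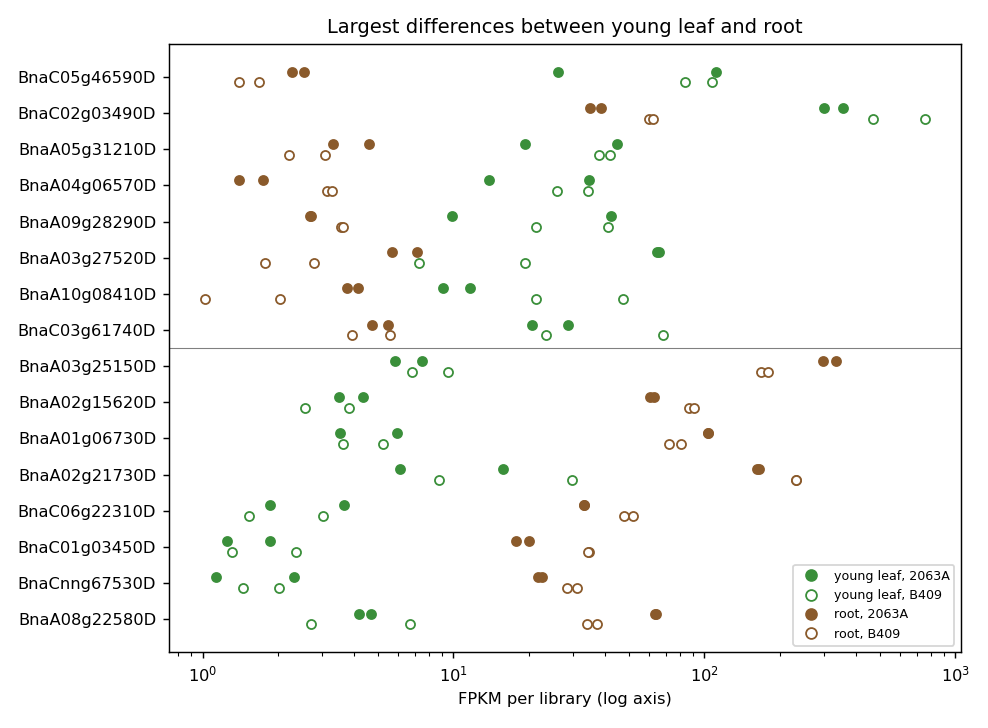
FPKM per library (log axis) of the 8 members with the largest leaf excess (upper block) and the 8 with the largest root excess (lower block) among those called without overlap; green is young leaf, brown is root, filled points are 2063A and open points B409. In every row all 4 points of one organ lie beyond all 4 of the other, and for BnaA03g25150D they are 5.82 to 9.51 in young leaf and 168 to 334 in root.

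The members with the closest levels in the 2 organs were BnaCnng42030D, BnaA09g16850D, BnaCnng04500D and BnaA06g24000D. BnaCnng42030D was at 6.34 ± 1.99 in young leaf and 6.06 ± 0.342 in root, and BnaA06g24000D at 4.91 ± 0.693 and 4.79 ± 0.883 (SD, n = 4 each). BnaCnng04500D was at 4.97 ± 1.12 and 4.90 ± 1.28, and BnaA09g16850D at 6.59 ± 2.29 and 6.30 ± 1.28 (SD, n = 4 each). Their log2 differences of 0.02 to 0.03 did not pass the test as deposited (adjusted p = 0.83 to 0.97). After quantile normalization they were 0.43 to 0.45 (adjusted p = 0.0026 to 0.033), below the 2-fold minimum. Members that were not called had a median mean of 5.40 FPKM, below the 9.06 of the root-higher and the 14.8 of the leaf-higher members. The rule asks for 1 FPKM in every library, which limits how large a difference a member of low mean can show.

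The leaf against root pattern was alike in the 2 cultivars, which share no library. Across the 150 members the log2 difference between young leaf and root in 2063A correlated with that in B409 at r = 0.90, and it had the same sign in 131. Members are not independent replicates, and the value is a description.

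Young leaf replicates differed more than root replicates, among the members and among all tested genes, whose median replicate SD was 0.244 in young leaf and 0.114 in root on the log2 scale. For 38 members the 2 young leaf libraries of 2063A were at least 2-fold apart, and for 32 those of B409, against 1 and 0 members in root. In B409, 111 of the 150 members were higher in replicate 2 than in replicate 1 (median log2 difference 0.32, against 0 for all tested genes), whereas in 2063A the count was 75. The replicate difference of a member in 2063A correlated with that in B409 at r = 0.48 (150 members, description only), and 67 members were higher in replicate 2 in both cultivars against 31 in replicate 1 in both. Without both young leaf replicate 1 libraries, an alternative chosen after seeing the data, 70 members were higher in root and 20 in young leaf. Without both replicate 2 libraries the counts were 74 and 18.

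The A and C subgenomes contributed similar numbers of members. There were 80 A genes (53.3%) and 70 C genes (46.7%), against 49.2% and 50.5% of all tested genes and 44.0% and 55.5% of all listed identifiers. Members came from all 10 A and all 9 C chromosomes, from 2 on C04 (of 2769 tested genes) to 13 on C03 (of 4094) and 12 on A09 (of 3473). For 15 members, 4 of them A and 11 C, the identifier names no chromosome. Which A member is the homeolog of which C member is not given by the identifiers and was not analysed here, so the copies are compared as 2 sets. The handling of reads that match both copies is not stated, so values of near-identical copies are uncertain.

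The A and C members were compared as sets by their levels and calls, with no test of a difference between the sets. The median of the mean FPKM was 7.32 for A and 7.43 for C. Of the 80 A members 38 were called higher in root (47.5%) and 10 in young leaf (12.5%), against 27% and 13.9% of all tested A genes. Of the 70 C members the counts were 32 (45.7%) and 5 (7.14%), against 27.5% and 13.1% of all tested C genes. Among genes that reached 1 FPKM in all 8 young leaf and root libraries, 27.2% of A genes were called higher in root and 9.68% in young leaf. For C genes these shares were 27.4% and 9.38%. The leaf-higher share of the A members was thus below that of all tested A genes but above that of A genes present in both organs. The median difference, young leaf minus root, was -0.91 for A and -0.77 for C members on the log2 scale, against -0.40 and -0.42 for all tested genes of each subgenome. Among the 10 members with the highest mean, 5 were A and 5 were C. The 4 with the largest root excess were all A genes, and the 2 with the largest leaf excess both C genes.

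The A share of the summed FPKM of the members was lower in young leaf than in root. It was 44.9% and 39.7% in young leaf of 2063A, 35.04% and 31.9% in that of B409, 65.2% and 64.7% in root of 2063A, and 56.9% and 56.5% in root of B409. The organs did not overlap, and within each organ both 2063A libraries were above both B409 libraries. This contrast rested on a few abundant genes. Without BnaC02g03490D the share was 50.4% to 56.8% in young leaf and 58.0% to 66.3% in root. Without the 3 members of highest mean it was 49.0% to 56.4% and 49.7% to 57.3%, and the organs overlapped, while both 2063A libraries lay above both B409 libraries in each organ. The same cultivar order held over all listed genes, by a smaller margin. Their A share was 53.7% and 51.4% in young leaf of 2063A, 50.2% and 49.8% in that of B409, 49.5% and 49.4% in root of 2063A, and 48.8% and 48.9% in root of B409.

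**Figure D4:**
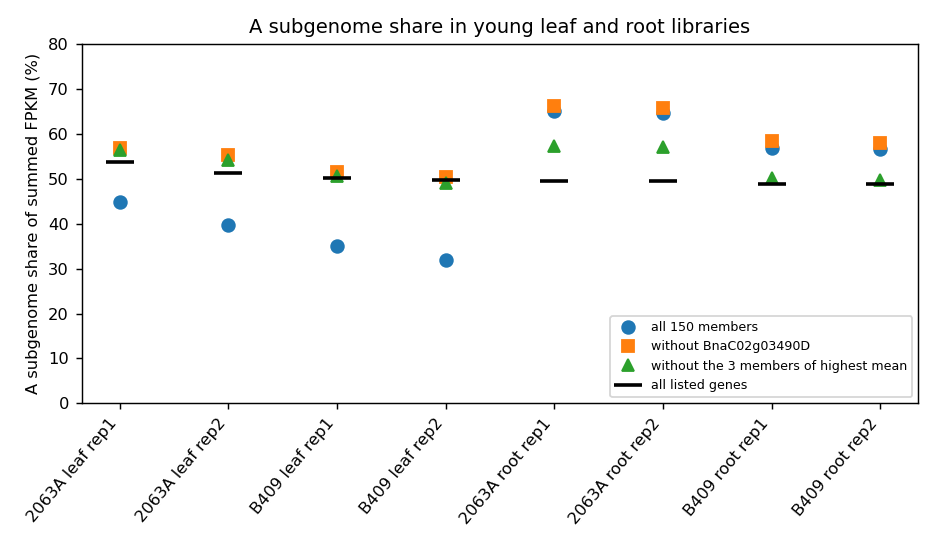
Percent of summed FPKM that came from genes of the A subgenome in the 8 young leaf and root libraries, for all 150 members, for the members without BnaC02g03490D, for the members without the 3 of highest mean, and for all listed genes (black bars). With all members the young leaf libraries sit at 31.9% to 44.9% and the root libraries at 56.5% to 65.2%; without the 3 genes the organs overlap.

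Some members were close neighbours. With identifier numbers at most 50 apart on the same chromosome, 10 members formed 5 pairs, on A03, C01, C09 and, with 2 pairs, C03. Within a pair the organ balance was shared in some cases and not in others. BnaC09g17940D and BnaC09g17950D, with consecutive numbers, were both higher in root, the second at 18.8 ± 2.43 in root and 2.85 ± 1.58 in young leaf (SD, n = 4 each; log2 difference -2.46, SE 0.25, adjusted p = 2.2e-06). BnaC01g03450D and BnaC01g03470D were likewise both higher in root (log2 differences -3.32 and -1.95). BnaC03g55550D and BnaC03g55560D, also consecutive, were both below the 2-fold limit on the log2(FPKM + 1) scale (log2 differences 0.98 and 0.72). They were at 11.9 ± 5.39 and 5.69 ± 2.32 in young leaf and 5.09 ± 0.533 and 2.91 ± 0.592 in root (SD, n = 4 each). Both were higher in young leaf by more than 2-fold after quantile normalization.

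The pairs on A03 and at the start of C03 did not match. BnaA03g26660D was higher in root, at 30.5 ± 4.56 against 4.99 ± 2.67 in young leaf (SD, n = 4 each; log2 difference -2.50, SE 0.29, adjusted p = 7.7e-06). Its neighbour BnaA03g26620D was at 2.62 and 9.43 in young leaf of 2063A, 2.40 and 14.3 in that of B409, and 2.71 to 3.97 in root. In young leaf, replicate 2 was more than 2-fold above replicate 1 in both cultivars, and the gene was not called (adjusted p = 0.18). It was called higher in young leaf without the young leaf replicate 1 library of either cultivar. BnaC03g01850D was higher in root (log2 difference -1.61, SE 0.28, adjusted p = 0.00021), and BnaC03g01890D was at 8.60 ± 2.78 in young leaf and 6.32 ± 2.19 in root (SD, n = 4 each). Neighbours with similar sequence could share reads, which was not tested.

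Of the 6 members found in the RefSeq table, BnaA09g28290D and BnaA09g06020D were higher in young leaf and BnaA04g05810D was higher in root. BnaA09g06020D was at 15.5 ± 6.42 in young leaf and 4.0 ± 0.518 in root (SD, n = 4 each), and it was listed at 0 in all 8 flower bud and silique libraries. BnaA04g05810D was at 2.98 ± 1.29 and 11.8 ± 1.05 (SD, n = 4 each). BnaC06g24340D, BnaA09g29380D and BnaCnng18970D were not called between the organs, with log2 differences of 0.06, 0.41 and -0.58.

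The second comparison set 2063A against B409 within each organ. In root 5 members were called higher in 2063A (3.33%, against 5.36% of tested genes) and 6 in B409 (4%, against 5.43%). In young leaf 2 were called higher in 2063A (1.33%, against 4.33%) and 16 in B409 (10.7%, against 5.00%). Among the 23080 genes that reached 1 FPKM in all 8 libraries, the share called in favour of 2063A was 3.2% in root and 3.45% in young leaf, and that in favour of B409 was 2.67% and 2.89%. Of those genes 21344 reached 1 FPKM in all 16 libraries, whereas every member was below 1 in the flower bud and silique libraries. Whether that bears on these shares was not tested. In all, 25 members were called in at least 1 organ and 125 in neither. The share of all tested genes called in at least 1 organ was not computed. The 2 libraries of 2063A lay above the 2 of B409 without overlap for 23 of the 150 members in young leaf and 49 in root. Among tested genes 20.8% and 32.3% did so, a larger share in young leaf and a similar one in root. The reverse held for 38 and 67 of the 150 members, larger shares than the 18.7% and 26.9% of tested genes. The median difference, 2063A minus B409, was -0.08 in young leaf and -0.13 in root on the log2 scale, against 0 for all tested genes. Members had to reach 1 in both cultivars, so a gene silent in either cultivar could not be among them. The fit shares 1 spread over all tissues, so a member has the same SE in young leaf as in root (median 0.218). The median replicate SD of the members was 0.372 in young leaf and 0.117 in root. Adjusted p-values in young leaf may therefore understate the variation between its replicates.

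The young leaf counts of members were unstable in both directions. The matching shares of all tested genes are not given here, so the shifts may not be particular to the members. The 16 for B409 became 8 without replicate 2 of B409 young leaf, 22 without replicate 1 of B409 and 20 without replicate 1 of 2063A. The 2 for 2063A became 7 without replicate 2 of 2063A, 5 without replicate 2 of B409 and 4 without replicate 1 of B409. With weights for each library 11 members were called higher in B409, and with a pseudocount of 0.1 the count was 6. A limma fit restricted to the 4 libraries of young leaf called 0 members in either direction (smallest adjusted p among members 0.15). It called none of the 54206 tested genes either (smallest adjusted p 0.0506), so the 0 is not particular to the members. In that fit 14 members had an unadjusted p under 0.05. In root, the fit to its 4 libraries alone called 7 of the 11 members, 2 higher in 2063A and 5 in B409. There 86 members had an unadjusted p under 0.05, and 11 of these also differed by 2-fold or more. The shares of all tested genes at these unadjusted cuts, in young leaf and in root, were not computed. Root replicates were close for all tested genes as well (median SD 0.114 on the log2 scale).

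In both organs in the same direction, BnaA03g27520D and BnaCnng18970D were called higher in 2063A and BnaC03g01850D higher in B409. BnaA03g27520D, on A03, was at 65.7 and 64.6 in young leaf of 2063A and 7.31 and 19.3 in that of B409. In root it was at 7.16 and 5.69 in 2063A and 2.79 and 1.77 in B409. Neither organ showed overlap between the cultivars (log2 difference 2.35, SE 0.31, adjusted p = 0.00023 in young leaf; 1.19, SE 0.31, adjusted p = 0.017 in root). The root call was lost without either 2063A root library or without replicate 2 of B409 root, at adjusted p = 0.051 to 0.15.

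BnaCnng18970D was at 4.69 and 6.10 in young leaf of 2063A and 1.20 and 1.89 in that of B409, and at 6.35 and 8.90 against 2.56 and 3.89 in root. The log2 differences were 1.33 in young leaf and 1.03 in root (SE 0.21 each, adjusted p = 0.00069 and 0.0031). The root difference fell under 2-fold without replicate 2 of 2063A root (0.82) or replicate 1 of B409 root (0.80).

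BnaC03g01850D, at rank 10 by mean, had the largest difference among the members called in root. It was at 83.4 and 91.5 in root of B409 and at 11.0 and 13.6 in root of 2063A (log2 difference -2.74, SE 0.39, adjusted p = 0.00026). In young leaf it was at 23.3 and 18.2 in B409 and at 2.20 and 9.54 in 2063A, which leaves the cultivars separate with a wide gap between the 2063A replicates (log2 difference -1.90, SE 0.39, adjusted p = 0.0048). Without both young leaf replicate 1 libraries the difference there was -0.87.

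In root alone, BnaAnng06940D had the largest excess in 2063A, at 25.7 and 22.3 against 5.02 and 3.28 in B409 (log2 difference 2.30, SE 0.22, adjusted p = 9.1e-06). In young leaf it was at 3.11 and 1.75 in 2063A and at 1.11 in both B409 libraries. BnaA10g23560D followed with 11.9 and 9.63 in root of 2063A and 4.52 and 4.67 in that of B409 (log2 difference 1.06, SE 0.17, adjusted p = 0.00067), although the difference was 0.93 without replicate 1 of 2063A root. On the side of B409, BnaA04g26470D was at 10.2 and 10.6 in root against 1.89 and 2.65 in 2063A (log2 difference -1.81, SE 0.17, adjusted p = 1.1e-05). BnaA04g23150D was at 47.6 and 50.7 in root of B409 and 17.7 and 16.8 in that of 2063A (log2 difference -1.46, SE 0.21, adjusted p = 0.00024), and was listed at 0 in all flower bud and silique libraries. BnaC07g13240D, also listed at 0 there, was at 19.1 and 20.9 against 7.78 and 7.27 in root (log2 difference -1.30). BnaA08g17060D was at 16.9 and 14.9 against 6.10 and 4.53 in root (log2 difference -1.43), and its call was lost without replicate 2 of 2063A root (adjusted p = 0.055).

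In young leaf, BnaC03g22390D had the lowest adjusted p of the named members higher in B409, in the fit that shares its spread over all tissues. It was at 5.24 and 7.33 in B409 and at 1.53 and 1.10 in 2063A (log2 difference -1.65, SE 0.17, adjusted p = 3.7e-05). Its root values were 18.3 and 19.4 in B409 and 24.7 and 22.1 in 2063A, so the order of the cultivars was the opposite there, by a small margin. BnaC08g47390D was at 8.12 and 10.7 in young leaf of B409 against 3.69 and 3.14 in 2063A (log2 difference -1.23, SE 0.18, adjusted p = 0.00054). BnaCnng57420D was at 23.9 and 18.2 against 13.2 and 3.38 (log2 difference -1.47, SE 0.39, adjusted p = 0.021), and its call was lost without replicate 2 of 2063A young leaf (adjusted p = 0.051) or replicate 1 of B409 young leaf (0.089).

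BnaA10g08410D was the 1 member called in opposite directions in the 2 organs. It was at 21.4 and 47.3 in young leaf of B409 and 9.09 and 11.7 in that of 2063A (log2 difference -1.54, SE 0.31, adjusted p = 0.0038), but at 2.03 and 1.02 in root of B409 and 4.15 and 3.78 in root of 2063A (1.0, SE 0.31, adjusted p = 0.036). The root difference lies at the 2-fold limit on the log2(FPKM + 1) scale. It was not called in 9 of the 16 fits that leave out 1 library (root difference 0.71 without replicate 2 of B409 root). The young leaf difference was -0.99 without replicate 2 of B409 young leaf.

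Whether the cultivar difference depended on the organ was tested as an interaction, with the same spread shared over all tissues. It was called for 18 members, with 2063A minus B409 larger in young leaf for 8 (5.33%, against 2.97% of tested genes) and larger in root for 10 (6.67%, against 4%). Among the 23080 genes that reached 1 FPKM in all 8 libraries these shares were 1.23% and 1.84%. The 5 members with the smallest adjusted p were BnaC03g22390D, BnaA04g23150D, BnaA02g33930D, BnaC08g47390D and BnaA10g08410D, with adjusted p from 0.000315 to 0.00252. For BnaA04g23150D, young leaf values of 6.0 and 4.62 in 2063A and 1.81 and 3.74 in B409 stood against the B409 excess in root (interaction 2.24, SE 0.29, adjusted p = 0.00037). BnaA02g33930D was at 1.99 and 2.25 in young leaf of 2063A against 5.22 and 7.44 in B409, and at 13.9 and 14.7 against 11.0 and 9.29 in root (interaction -1.68, SE 0.24, adjusted p = 0.00084). The count was 2 with a pseudocount of 0.1 and 4 when fitted to the 8 young leaf and root libraries alone. The shares of all tested genes in these alternative fits are not given here. Without both young leaf replicate 2 libraries it was 39. Across members the 2063A minus B409 difference in young leaf and that in root had the same sign in 83 of 150 (r = 0.25, description only).

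**Figure D5:**
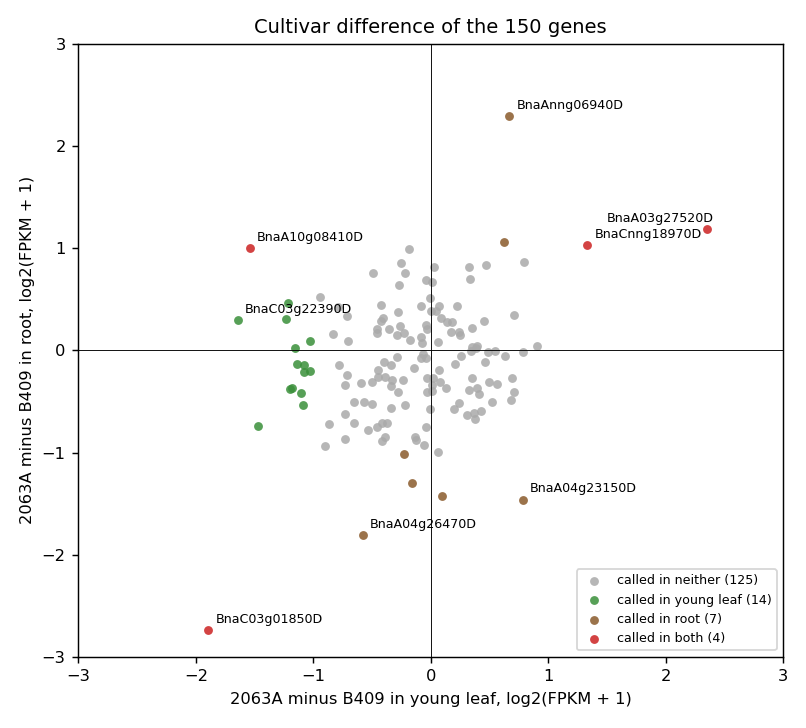
Difference 2063A minus B409 on the log2(FPKM + 1) scale in young leaf (horizontal) and root (vertical) for the 150 members, each the difference of 2 means of n = 2; colour shows in which organ limma called the member. The 125 uncalled members surround 0, BnaC03g01850D lies lowest at -1.90 and -2.74, and BnaA10g08410D lies in the quadrant of opposite signs.

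The subgenomes were represented on both sides of the cultivar comparison. Of the 80 A members, 1 was called higher in 2063A and 7 in B409 in young leaf (1.25% and 8.75%), against 5.49% and 4.71% of all tested A genes. In root the counts were 4 and 3 (5% and 3.75%), against 6.66% and 5.74%. Of the 70 C members, 1 and 9 were called in young leaf (1.43% and 12.9%), against 3.19% and 5.28% of all tested C genes. In root the counts were 1 and 3 (1.43% and 4.29%), against 4.09% and 5.13%. Among A genes that reached 1 FPKM in all 8 young leaf and root libraries, the shares for 2063A and B409 were 5.03% and 3.19% in young leaf. In root they were 4.77% and 3.6%. For C genes they were 1.95% and 2.62% in young leaf and 1.73% and 1.81% in root. The median difference, 2063A minus B409, was -0.03 in both organs for A members and -0.23 in young leaf and -0.25 in root for C members. Over all tested genes it was 0.01 in both organs for A and 0 in both for C. Whether the A and C members differ was not tested.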

How the data were processed

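The authors deposited 1 FPKM value per gene and library, per the file headers. Trimmomatic, TopHat2 and Cufflinks 2.1.1 were used, per the submitters' processing notes, which give no roles or settings. The genome build, annotation and handling of multi-mapped reads are not stated. Groups and replicate numbers came from the sample titles. Summed FPKM per library ran from 519039 to 617686. FPKM values are not counts, so log2(FPKM + 1) went into limma 3.58.1 under R 4.3.3 (1 mean per group, all 16 libraries, mean-variance trend, 8 residual and 3.35 prior degrees of freedom, two-sided) over 54206 genes. The pseudocount of 1 understates changes of low genes. The scripts were tested on simulated data.

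The members, tests and alternatives were chosen with earlier results of these data known. Named are the 10 members of highest mean, the 8 largest called differences without overlap in each direction and the 4 smallest between organs, the 5 largest in each direction between cultivars in each organ, the 5 smallest interaction p-values, members with a neighbour, members in the RefSeq table and those at the border of the list. BnaA09g30590D and the other genes at the FPKM threshold were chosen after their values were seen. Relative depth is the most frequent ratio of values below 0.3 FPKM to those of replicate 1 of 2063A root.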

Additional observations from a re-analysis of the deposited data

Results flagged for a closer look

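In 84 sets of 4 libraries (4 summary measures and the named members, in young leaf and in root), 2 had a single library far from the others by Dixon's criterion at 95%, which chance exceeds in about 1 of 20 sets. BnaC03g61740D in young leaf had a gap-to-range ratio of 0.835, with 68.3 in replicate 2 of B409 and 20.6 to 28.5 in the other libraries. BnaA05g04830D in young leaf had a ratio of 0.859, with 4.44 in replicate 1 of 2063A and 1.88 to 2.24 in the others.

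The difference between 2063A and B409 differed between young leaf and root, by the limma interaction test, for 12 of the named members. Some members were named for a small interaction p or a cultivar call, so this number partly follows from the naming. Of the 18 interaction calls among all members, 4 were kept in the fit to the young leaf and root libraries alone. With a pseudocount of 0.1, only 1 in each direction was kept. The cultivar difference in young leaf minus that in root was -2.54 for BnaA10g08410D, -1.94 for BnaC03g22390D, -1.68 for BnaA02g33930D, -1.63 for BnaAnng06940D, -1.54 for BnaC08g47390D and -1.11 for BnaA03g25150D on the log2 scale. It was 2.24 for BnaA04g23150D, 1.52 for BnaA08g17060D, 1.23 for BnaA04g26470D, 1.14 for BnaC07g13240D, 1.12 for BnaA09g16850D and 1.03 for BnaA05g04830D.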

How the results depend on the processing

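Main counts of members called were 15 (higher in young leaf) and 70 (root), 2 (2063A) and 16 (B409) in young leaf, 5 and 6 in root, and 18 for the interaction; causes of shifts were not tested. The shares of all tested genes called under the alternatives below are not given here, so a shift may not be particular to the members. Quantile normalization gave 25 higher in young leaf and 3 higher in 2063A in root. With no fold minimum the counts were 28, 94, 7, 26, 13, 18 and 22. With a pseudocount of 0.1, 6 members were higher in B409 in young leaf, 3 in 2063A in root, and 2 passed the interaction. Fits to the libraries of a comparison alone gave 0 and 0 in young leaf, where no tested gene was called. They gave 2 higher in 2063A in root and 4 for the interaction, and library weights gave 11 for the interaction. Leaving out 1 library gave 15 to 18 and 69 to 74 between organs, 2 to 7 and 8 to 22 in young leaf, 2 to 5 and 4 to 7 in root, and 9 to 29 for the interaction. The lowest interaction count came without replicate 2 of B409 root and the highest without replicate 2 of 2063A young leaf. Without both young leaf replicate 2 libraries, added after seeing the data, 8 and 8 were called in young leaf and 39 for the interaction, and without both replicate 1 libraries 25 were higher in B409.

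With the replicate number as a block the counts were 15, 70, 2, 16, 5, 6 and 18, and with a block within each tissue the interaction count was 14. The numbers give no pairing by the labels: of 28 pairs of groups, same-numbered libraries deviated together at r above 0.1 in 1 (the 2 young leaf groups, 0.33). Applied to a threshold of 0.5 or 2 FPKM, the rule kept 66 or 73 of the 150 members, and after equal totals or quantile normalization 143 or 107. Single genes reversed were BnaC06g24340D, whose difference between organs was -0.12 with equal totals, -0.21 without replicate 1 of 2063A young leaf, -0.04 without replicate 1 of 2063A root, up to 0.32 without replicate 2 of 2063A young leaf, and -0.17 without both young leaf replicate 1 libraries, and BnaA03g26620D, at -0.29 without both replicate 2 libraries. Values near 1 FPKM rest on few fragments, and 2 replicates per group limit every cultivar comparison.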
